A study of Mus musculus with 24 samples.

Results

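A set of 10 targets of NRF2, the transcription factor that switches on antioxidant genes, were followed in cultured mouse oligodendrocytes kept with or without ethanol. The genes were Nqo1, Hmox1, Gclc, Gclm, Txnrd1, Srxn1, Slc7a11, Prdx1, Gsr and Txn1, taken from a list by symbol, and all 10 of them were found among the 55359 genes of the count table. The list was chosen with earlier results of these data known, so its counts set against all genes below are descriptions. Oligodendrocytes were obtained from the cortex of C57Bl6J pups on postnatal days 5 to 7 with magnetic beads against O4, an antigen of immature oligodendrocytes, and were differentiated for 3 days with triiodothyronine as the main factor. They then spent 3 days with ethanol or without it. Experiment 1 held 6 samples at 30 mM ethanol and 6 control samples at 0 mM, and experiment 2 held 6 samples at 10 mM ethanol and 6 control samples at 0 mM. Each experiment was also a batch of its own in the labels, and ethanol and control plates stood in separate incubators. Dose and experiment, and ethanol and incubator, therefore cannot be told apart. The labels call the samples biological replicates without naming the litters behind them, so p-values measure the spread between these samples.

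NRF2, encoded by Nfe2l2, is held at a low level by KEAP1, which marks it for degradation. Oxidants and electrophiles disable KEAP1, and NRF2 then pairs with small MAF proteins on antioxidant response elements (ARE) in its target genes, where the repressor BACH1 competes for the same sites. The targets make glutathione, keep thioredoxin reduced, break down haem and detoxify quinones. Oligodendrocytes are known for a high iron content and a limited glutathione reserve, and oxidation of ethanol can produce reactive oxygen species.

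Promoter sequence was available for 7 of the 10 genes (not Hmox1, Gclc and Gsr) in a RefSeq table (GRCm38.p6, 250 bases before to 50 after each start). Because most of these genes were lower together in ethanol samples, their promoters were searched on both strands for the ARE core TGACNNNGC, the AP-1 site TGANTCA, which can overlap it, and the C/EBP-ATF element TGATGNAA, through which ATF4 acts on amino acid genes. The stretches below show the matches in capitals with 25 bases on each side, written 5′ to 3′ in the direction of transcription, and none of them overlapped an exon in the GENCODE M21 annotation. The stretch of Txnrd1 lies in an intron of that gene, before the second of its 3 listed starts, and the other stretches lie outside annotated genes in GENCODE M21.

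Gclm, ARE core on the opposite strand, chr3:122245398-122245456 (+): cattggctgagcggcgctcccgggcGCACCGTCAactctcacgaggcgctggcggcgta
Prdx1, ARE core on the opposite strand, chr4:116685441-116685499 (+): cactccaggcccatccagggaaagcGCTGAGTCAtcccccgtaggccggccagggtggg
Txnrd1, ARE core on the opposite strand, chr10:82859089-82859147 (+): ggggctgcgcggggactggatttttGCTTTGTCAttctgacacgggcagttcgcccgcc
Srxn1, AP-1 sites, chr2:152105397-152105510 (+): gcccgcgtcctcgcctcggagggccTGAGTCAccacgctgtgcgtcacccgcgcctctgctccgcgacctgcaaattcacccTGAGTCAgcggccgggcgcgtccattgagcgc
Slc7a11, C/EBP-ATF elements on both strands, chr3:50443628-50443704 (-): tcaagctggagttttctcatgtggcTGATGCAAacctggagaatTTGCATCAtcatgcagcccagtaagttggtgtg

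An ARE core was present in 4 of the 9 promoters of these genes, against 12.4% of 32851 promoters of the same length. It was in 31.25% of 32 promoters of other NRF2 targets and in 25% of 16 promoters of NRF2 regulators. The 10 genes were listed as NRF2 targets, so this share says nothing about their change with ethanol. The match in Gclm lay 126 to 134 bases before the start and that in Txnrd1 84 to 92 bases before its start. The Prdx1 match, 125 to 133 bases before the start, shares bases with an AP-1 site, and a second AP-1 site lay at 231 to 237. AP-1 sites were in 2 of the 9 promoters and in 7.81% of all. Srxn1 had its ARE core at transcribed bases 29 to 37, in addition to the 2 AP-1 sites shown. Slc7a11 was the only one of the 7 genes with the C/EBP-ATF element, at 59 to 66 and at 40 to 47 bases before the start, and 3.97% of all promoters held that element. These letters were not found in the windows of Nqo1 and Txn1. A match is a description of the letters and not evidence of binding.

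RNA was read by 3′ TagSeq, in which each read comes from near the 3′ end of a transcript, and levels are given as CPM, counts scaled to a common library size by TMM over all 24 samples together. Total counts were 1184609 to 1817028 per sample, so that 3 counts, taken as the floor, corresponded to 1.67 to 2.5 CPM, for counting error only. The lowest count of any of the 10 genes in a sample was 19, for Nqo1 at 10 mM, above that floor. All 10 passed the filter on low counts in each comparison. All 8 oligodendrocyte markers, such as Mbp and Mog, were detected in each group and summed to 6801 to 16290 CPM in a sample. The 7 astrocyte markers, such as Gfap and Aqp4, summed to 3646 to 6472 CPM. In such bulk samples fewer cells of a type and less RNA per cell cannot be told apart.

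At 30 mM ethanol, 9 of the 10 NRF2 targets fell and none rose, by edgeR's quasi-likelihood test against the controls of experiment 1 at an adjusted p under 0.05 over 13235 genes. Of all genes tested, 9.67% passed by the same rule, 6.65% lower and 3.02% higher. With upper-quartile scaling, lower genes made up 55.9% of all calls in place of 68.8%, and the same 9 targets fell. The median log2 fold change of the 10 genes was -0.44, against 0.02 over all genes. Their summed level averaged 3071 ± 157 CPM (SD, n = 6) among controls and 2307 ± 192 CPM (SD, n = 6) with ethanol at 30 mM. The share of counts from mitochondrial genes was 2.94 to 3.82% in these controls and 3.58 to 4.79% at 30 mM, and its part in the fall was not tested. In experiment 2 that share was 2.06 to 2.38% in controls and 1.81 to 2.37% at 10 mM. In 6 of the 10 genes each ethanol sample lay below each control sample, as it did in 3.1% of all genes tested, and in none did each lie above, as in 1% of all genes.

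**Figure D1:**
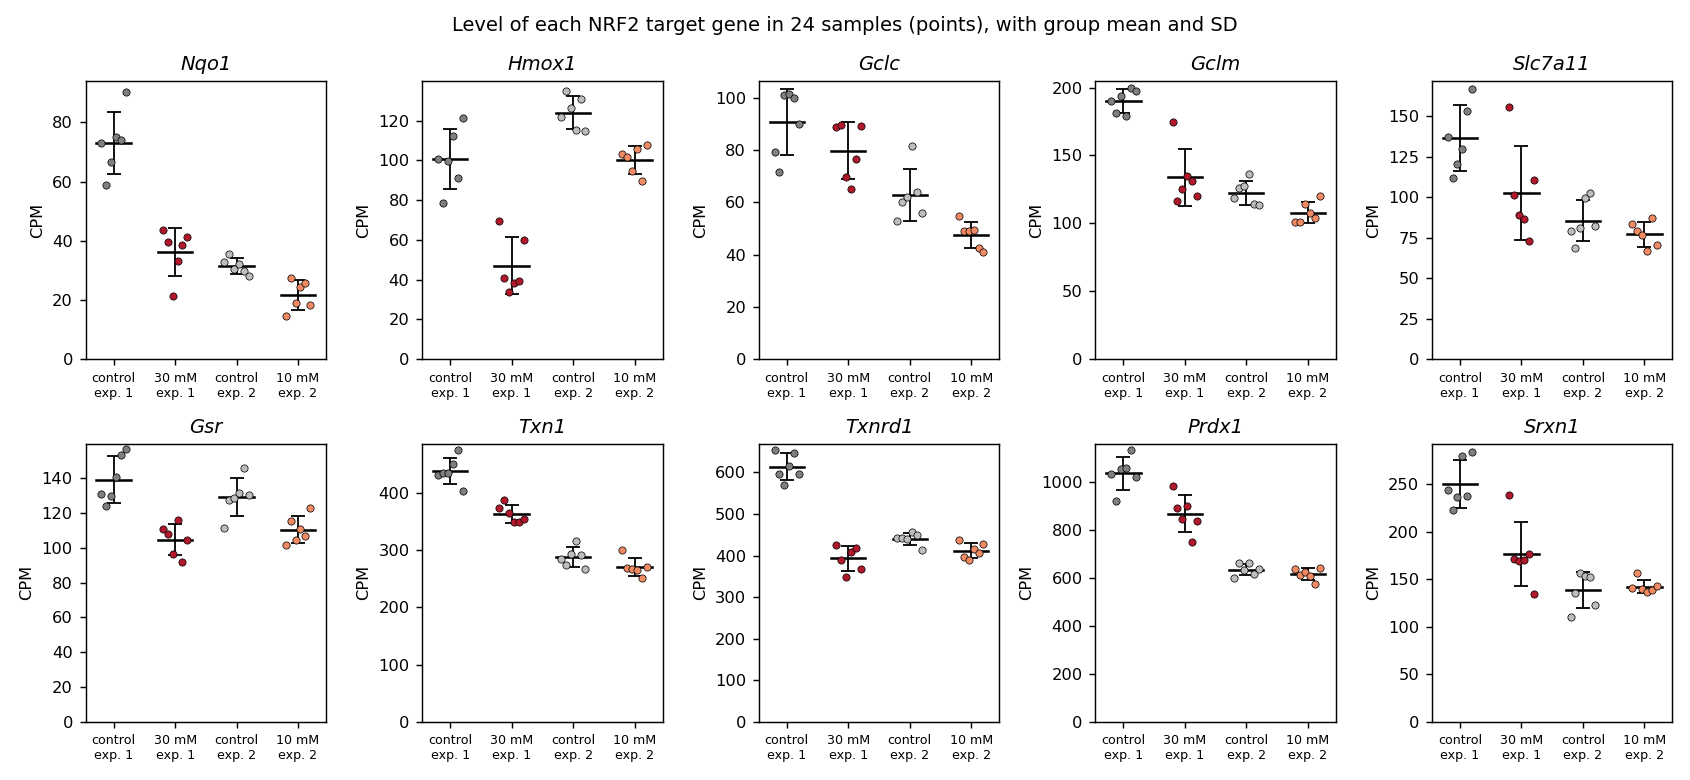
CPM of each of the 10 NRF2 targets in the 24 samples (points), grouped as controls and 30 mM ethanol of experiment 1 and controls and 10 mM ethanol of experiment 2, with lines for the group mean and bars for its SD. Nqo1 fell from 58.9 to 90.2 CPM in the experiment 1 controls to 21.3 to 43.7 CPM at 30 mM, with no overlap, whereas the Srxn1 samples of experiment 2 overlap.

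The steepest falls were in Hmox1 and Nqo1. Hmox1 encodes haem oxygenase 1, which degrades haem to biliverdin, iron and carbon monoxide. Its level was 78.4 CPM in the lowest control sample, 100.1 at the median and 121 in the highest, and 33.6, 40.1 and 69.6 CPM at 30 mM. Each ethanol sample was below each control sample, and replicates 1 and 6 at 30 mM, with 69.6 and 59.96 CPM, were the nearest to them. The log2 fold change was -1.07 (95% confidence interval -1.32 to -0.82, edgeR adjusted p = 3.22e-08), a level 0.476 times that of the controls.

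Nqo1 encodes the quinone reductase that is widely read as a gauge of NRF2 activity. Control samples had 58.9 to 90.2 CPM with a median of 73.6, and 30 mM samples had 21.3 to 43.7 CPM with a median of 39.1. The groups did not overlap, and replicate 3 at 30 mM was the lowest. The log2 fold change was -0.98 (interval -1.23 to -0.73, edgeR adjusted p = 1.46e-07).

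The genes that supply glutathione had log2 fold changes of different size. Glutamate-cysteine ligase, the rate-limiting enzyme, has a catalytic subunit encoded by Gclc and a modifier subunit encoded by Gclm. Gclm had 179 to 199.8 CPM in control samples (median 191.8) and 116.5 to 174.9 CPM at 30 mM (median 128), without overlap, although replicate 1 at 30 mM lay just under the lowest control. Its log2 fold change was -0.49 (interval -0.66 to -0.33, edgeR adjusted p = 2.68e-05). The gene Gm17494 on the opposite strand overlaps the last 500 bases of Gclm in GENCODE M21, and reads of the pair cannot be told apart if strand was not used in counting. Gclc did not pass at this dose, with 71.7 to 101.6 CPM in control samples (median 95), 65 to 89.5 CPM at 30 mM (median 82.6) and overlapping groups. Its log2 fold change was -0.18 (interval -0.37 to 0.02, edgeR adjusted p = 0.275). That interval overlapped the interval of Gclm, and no test compared these genes with each other.

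Slc7a11 encodes the exchanger subunit of system xc-, which imports cystine for glutathione synthesis. Its samples ran from 112 to 166.9 CPM in the controls (median 133.7) and from 73.2 to 155.8 CPM at 30 mM (median 95.3), and the groups overlapped through replicate 1 at 30 mM. The log2 fold change was -0.38 (interval -0.61 to -0.15, edgeR adjusted p = 0.0234). This was the weakest of the 9 calls: it did not pass with DESeq2 (adjusted p = 0.169), nor when replicate 3, 4 or 5 at 30 mM or control replicate 5 or 6 was left out. Gsr, for glutathione reductase, which regenerates reduced glutathione, had 123.9 to 156.7 CPM in control samples (median 136.1) and 92.1 to 115.9 CPM at 30 mM (median 106.2). These groups did not overlap, and the log2 fold change was -0.40 (interval -0.56 to -0.23, edgeR adjusted p = 0.000734).

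All 4 genes of the thioredoxin arm fell. Txnrd1, the cytosolic thioredoxin reductase, had 569.9 to 653.9 CPM in control samples (median 606.8) and 347.9 to 426.3 CPM at 30 mM (median 398.7), far apart from each other. Its log2 fold change of -0.63 (interval -0.76 to -0.51) had the smallest p of the 10 genes (edgeR adjusted p = 2.32e-10) and ranked 18 among all genes. Srxn1, sulfiredoxin, which repairs over-oxidised peroxiredoxins, had 222.4 to 284 CPM in control samples (median 240.7) and 134.5 to 238.4 CPM at 30 mM (median 171.2). Only replicate 1 at 30 mM reached into the control range, and the log2 fold change was -0.49 (interval -0.66 to -0.31, edgeR adjusted p = 8.44e-05).

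Txn1 and Prdx1, of the same arm, had smaller falls than Txnrd1 and Srxn1 by log2 fold change. Txn1, thioredoxin itself, had 403.5 to 474.8 CPM in control samples (median 435.2) and 349.3 to 388.3 CPM at 30 mM (median 359.2), with no overlap and a log2 fold change of -0.26 (interval -0.38 to -0.14, edgeR adjusted p = 0.002). Prdx1, the peroxiredoxin that thioredoxin reduces, had 922 to 1134 CPM in control samples (median 1046) and 752.6 to 983.7 CPM at 30 mM (median 869.4). Replicate 1 at 30 mM overlapped the controls, and the log2 fold change was -0.25 (interval -0.37 to -0.13, edgeR adjusted p = 0.00444).

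**Figure D2:**
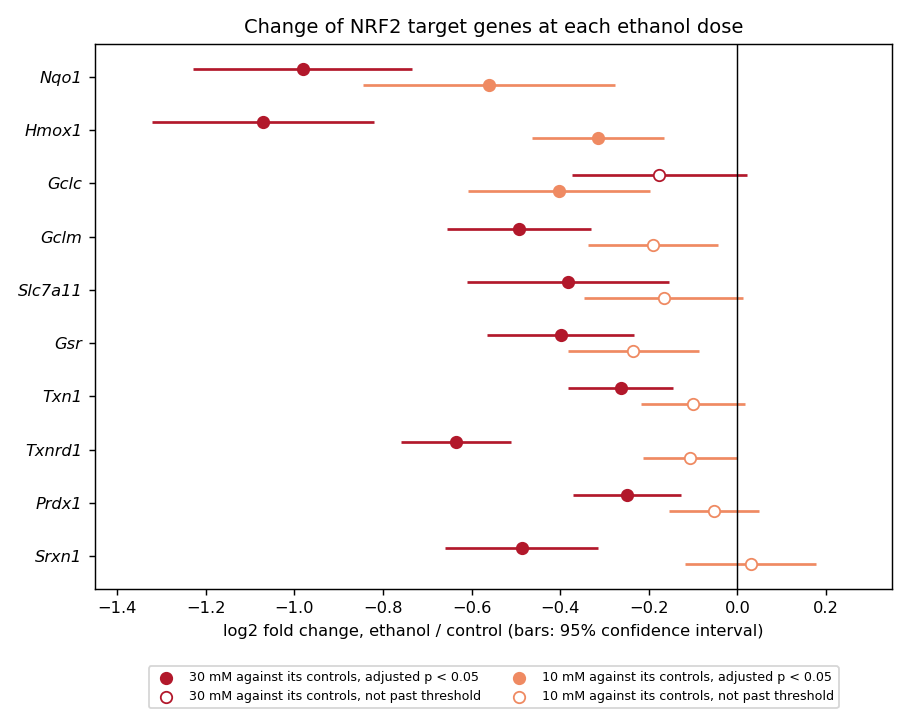
Log2 fold change of each gene (x axis, ethanol over control of the same experiment) at 30 mM and 10 mM, with 95% confidence intervals as bars and filled points for an adjusted p under 0.05. At 30 mM the values run from -1.07 for Hmox1 to -0.18 for Gclc, and at 10 mM from -0.56 for Nqo1 to 0.03 for Srxn1.

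At 10 mM, 3 of the 10 targets fell against the controls of experiment 2 and none rose, where 0.657% of 13538 genes passed by the same rule, 0.266% lower and 0.391% higher. The 3 were Nqo1, Hmox1 and Gclc. The median log2 fold change was -0.18 for the 10 genes and 0 for all genes to 2 decimals (-0.0023). The summed level averaged 2058 ± 86.1 CPM (SD, n = 6) among controls and 1908 ± 54.9 CPM (SD, n = 6) with ethanol at 10 mM. In 2 genes, Nqo1 and Hmox1, each ethanol sample lay below each control sample, as it did in 0.281% of all genes, and none had the reverse, which 0.532% of all genes had.

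Nqo1 had 28.1 to 35.5 CPM in the control samples of experiment 2 (median 31.3) and 14.4 to 27.4 CPM at 10 mM (median 21.6). The highest ethanol sample was just under the lowest control, and the log2 fold change was -0.56 (interval -0.84 to -0.28, edgeR adjusted p = 0.0383). Hmox1 had 115 to 134.8 CPM in control samples (median 124.2) and 89.4 to 107.5 CPM at 10 mM (median 102.4), also without overlap, and fell by 0.31 on the log2 scale (interval -0.46 to -0.17, edgeR adjusted p = 0.0221). Gclc, which did not pass at 30 mM, had 52.9 to 81.5 CPM in control samples (median 61.1) and 41.1 to 54.7 CPM at 10 mM (median 49). Its groups overlapped at replicate 1 of each, and the log2 fold change was -0.40 (interval -0.61 to -0.20, edgeR adjusted p = 0.0383).

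These 3 calls stood close to the threshold. In the fit of all 24 samples, and with either wider set of genes tested, 0 of the 10 genes passed at 10 mM, with adjusted p in the joint fit of 0.143 for Nqo1, 0.216 for Hmox1 and 0.149 for Gclc (edgeR). The number was also 0 when control replicate 2, 3 or 5 of experiment 2 was left out, and 1 without replicate 2, 5 or 6 at 10 mM or control replicate 4 or 6.

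The other 7 genes did not pass at 10 mM, and their log2 fold changes ran from -0.23 to 0.03. Gsr was nearest, with 111.6 to 146.1 CPM in control samples, 101.8 to 123.2 CPM at 10 mM and a log2 fold change of -0.23 (interval -0.38 to -0.09, edgeR adjusted p = 0.147). Gclm had -0.19, Slc7a11 -0.17, Txnrd1 -0.11, Txn1 -0.10 and Prdx1 -0.05 on the log2 scale, and the samples of each overlapped the controls. Srxn1 had 110.3 to 156.1 CPM in control samples and 136.2 to 156.4 CPM at 10 mM, with a log2 fold change of 0.03 (interval -0.12 to 0.18, edgeR adjusted p = 0.941). The sign of the Srxn1 value depended on the alternative settings, which gave -0.03 to 0.08.

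The change itself was compared between the doses as an interaction over all 24 samples, in which dose and experiment stand together. It differed for 3 of the 10 genes, each with the more negative change at 30 mM, against 3.28% of 14655 genes, 2.4% in that direction and 0.88% in the other. With upper-quartile scaling the share of more negative changes among all calls was 47.8% in place of 73.2%, and the same 3 genes differed. The difference of log2 fold changes was -0.77 for Hmox1 (interval -1.06 to -0.47, edgeR adjusted p = 0.000497), -0.54 for Txnrd1 (interval -0.70 to -0.37, edgeR adjusted p = 8.08e-06) and -0.53 for Srxn1 (interval -0.77 to -0.29, edgeR adjusted p = 0.0048). For Nqo1, the gene with the largest fall at 10 mM, it was -0.43 (interval -0.82 to -0.04, edgeR adjusted p = 0.23) and did not pass. Gclc was the only gene with a difference above 0, at 0.22 (interval -0.08 to 0.51, edgeR adjusted p = 0.463), so its passing at 10 mM and not at 30 mM is not shown to be a difference between the doses. Without replicate 1 at 30 mM the count was 5, with Gclm and Prdx1 added.

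The starting levels of these genes were not alike in the experiments. In control samples without ethanol, 8 of the 10 genes were higher in experiment 1 than in experiment 2 and 1 was lower, by edgeR's quasi-likelihood test, against 43.6% of 13479 genes that differed, 21.3% higher and 22.3% lower. The median log2 difference was 0.59 for the 10 genes and -0.01 for all genes. Nqo1 differed most, with a level 2.26 times as high (edgeR adjusted p = 1.13e-15), and its experiment 1 controls, at 58.9 CPM or more, all exceeded its experiment 2 controls, at 35.5 CPM or less. Srxn1 differed by 0.83, Prdx1 by 0.68, Slc7a11 by 0.64, Gclm by 0.61, Txn1 by 0.58, Gclc by 0.52 and Txnrd1 by 0.45, each passing. In 7 genes the control groups did not overlap, against 10.9% of all genes in that direction and 8.03% in the other, in which none of the 10 lay. Gsr did not pass (0.08, edgeR adjusted p = 0.399). Hmox1 went the other way, with a log2 difference of -0.33 (interval -0.49 to -0.17, edgeR adjusted p = 0.000449). Experiment and batch cannot be told apart in this comparison, which shares its control samples with the comparisons of each dose.

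The order of the mean levels over the 4 groups followed these differences. In 7 genes it was controls of experiment 1, 30 mM, then the samples of experiment 2, so that the 30 mM samples still stood above the controls of the other experiment on average. The exceptions were Txnrd1, Gsr and Hmox1, in which the 30 mM group had the lowest mean of the 4. Of the 30 pairs of neighbouring groups in these orders, 22 overlapped in their samples. For Prdx1 and Txn1 the 30 mM samples did not overlap the experiment 2 controls, whereas for Nqo1, Gclm, Gclc, Srxn1 and Slc7a11 they did.

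Among the regulators of the pathway the picture was mixed. Of 10 listed regulators 9 were tested, and 2 fell and none rose at 30 mM, where 6.65% of all genes fell and 3.02% rose. There were 0 that passed at 10 mM or in the interaction by edgeR, with 0 at an unadjusted p under 0.05 at 10 mM and 1 in the interaction. Over all genes, 0.657% passed at 10 mM and 3.28% in the interaction. Maff, a small MAF partner, had 26.2 to 32.9 CPM in experiment 1 controls and 11.5 to 24.3 CPM at 30 mM, without overlap, and fell by 0.70 on the log2 scale, with adjusted p = 0.00311 by edgeR and an SE of 0.164. Sqstm1, which encodes p62, a KEAP1-binding autophagy receptor and NRF2 target, fell by 0.23 (edgeR SE 0.0678, adjusted p = 0.0199). The transcript of NRF2 itself, Nfe2l2, had 123.4 to 177.9 CPM in experiment 1 controls and 151.5 to 233 CPM at 30 mM, with overlapping samples. Its log2 fold change was 0.20 (SE 0.0873, edgeR adjusted p = 0.149). Keap1 had a log2 fold change of -0.16, for which edgeR gave an SE of 0.0917 and adjusted p = 0.295. Transcript levels say nothing of the amount or location of the NRF2 protein.

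A longer list of 27 other NRF2 targets had 26 tested at 30 mM, of which 8 fell (6.65% of all genes did), 2 rose (3.02% of all genes did) and 16 did not pass, with a median log2 fold change of -0.19. Esd, for esterase D, went from 259.9 to 314.1 CPM in controls down to 153.6 to 221.1 CPM, with a log2 fold change of -0.73, for which edgeR gave an SE of 0.0746 and adjusted p = 1e-09. Gsta4, a glutathione transferase that conjugates the lipid peroxidation product 4-hydroxynonenal, had -0.64 (edgeR SE 0.0684, adjusted p = 4.41e-09), and Blvrb, biliverdin reductase B, had -0.85 (edgeR SE 0.111, adjusted p = 3.99e-07). The others that fell were the pentose phosphate enzymes G6pdx (-0.42) and Pgd (-0.38), malic enzyme Me1 (-0.34), Ptgr1 (-0.51) and Cbr3 (-0.38), each as a log2 fold change.

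Fth1 and Ephx1 rose. Fth1 encodes the ferritin heavy chain, which stores iron, and its log2 fold change was 0.25 (edgeR SE 0.0557, adjusted p = 0.00194). Ephx1 encodes microsomal epoxide hydrolase and rose from 301.4 to 404.8 CPM in controls to 430.3 to 472.9 CPM at 30 mM, by 0.30 (edgeR SE 0.0622, adjusted p = 0.00087). At 10 mM 0 of the 25 tested genes of this list passed by edgeR, where 0.657% of all genes did. An unadjusted p under 0.05 was reached by 9 of them. Of these, Me1, Gsta4, Abcc1, Ptgr1 and Esd were lower, and Ftl1, Ephx1, Htatip2 and Slc48a1 were higher. For comparison, Txnrd1, at an unadjusted edgeR p of 0.0476, ranked 1312 among the 13538 genes tested at 10 mM. In the interaction Esd (-0.52), Gsta4 (-0.47) and Blvrb (-0.67) had a more negative change at 30 mM and Fth1 (0.29) a more positive one. Of all genes, 2.4% passed in the more negative direction and 0.88% in the other.

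Of 18 tested genes of the glutathione system, 5 fell and none rose at 30 mM, with a list median of -0.09. Of all genes, 6.65% fell and 3.02% rose, which is the background for this list and the next ones. They were Gpx4, which detoxifies lipid peroxides in membranes (-0.35, SE 0.0744, edgeR adjusted p = 0.00111), Gpx7 (-0.69), Gsto1 (-0.43), Gpx1 (-0.19) and Slc3a2 (-0.24), the last encoding the heavy chain that pairs with SLC7A11. Of 11 genes of the thioredoxin and peroxiredoxin system besides those above, Prdx5 (-0.39, SE 0.0615, edgeR adjusted p = 1.31e-05) and Prdx4 (-0.50, SE 0.083, edgeR adjusted p = 3.03e-05) fell. Prdx6 rose by 0.22 (edgeR SE 0.0576, adjusted p = 0.00787). Of superoxide dismutases and catalase, Sod3, the extracellular enzyme, and Sod1, the cytosolic one, fell by 0.55 and 0.30, and the other 3 of 5 did not pass. At 10 mM no gene of these 3 lists passed by edgeR, where 0.657% of all genes did. An unadjusted p under 0.05 was reached by 2, 2 and 0 of them. As given above, Txnrd1, at an unadjusted edgeR p of 0.0476, ranked 1312 of 13538 genes at that dose. The interaction passed, with a more negative change at 30 mM, for Gpx4 (-0.55), Gpx7 (-0.94), Prdx4 (-0.49), Prdx5 (-0.32) and Sod1 (-0.30). No gene of the 3 lists passed with a more positive one. Of all genes, 2.4% passed in the more negative direction and 0.88% in the other.

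**Figure D3:**
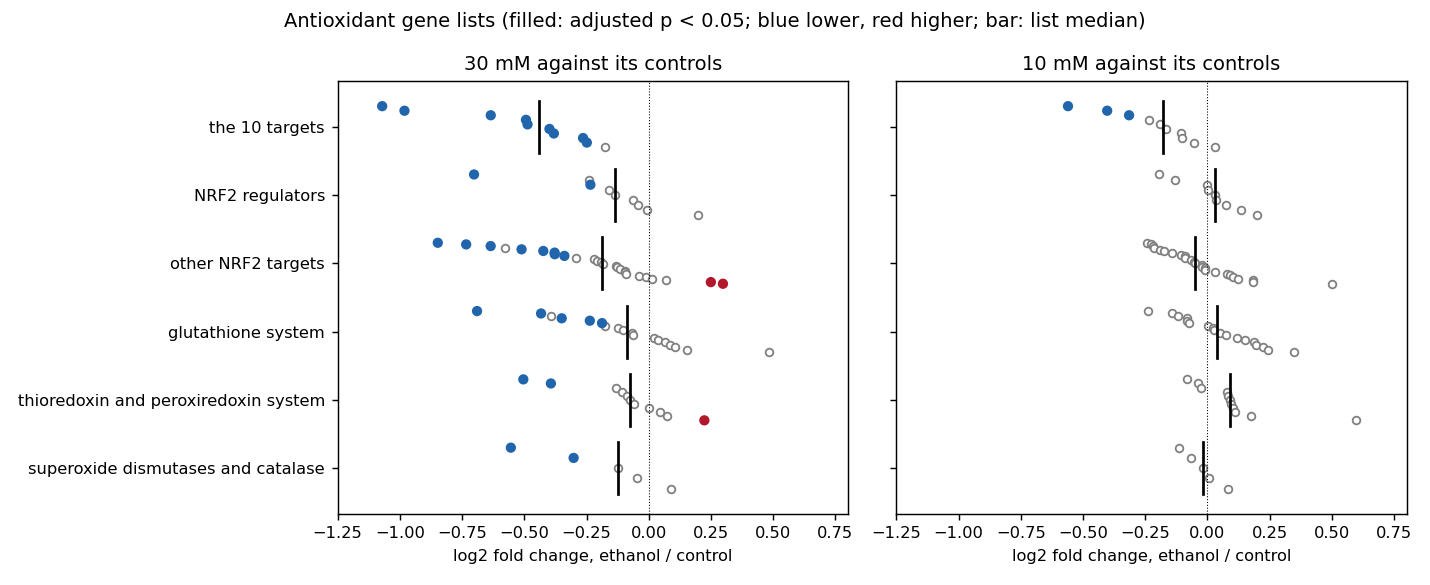
Log2 fold change (x axis) of each tested gene of the 6 antioxidant lists (y axis) at 30 mM and at 10 mM, with filled blue points for genes that fell, filled red for genes that rose, open points for genes that did not pass and a bar for each list's median. The medians at 30 mM run from -0.44 for the 10 targets to -0.08 for the thioredoxin and peroxiredoxin list, and 3 points are filled at 10 mM.

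Marker genes of other cell types also changed in these groups, though not all markers of a list did. The 10 mural and fibroblast markers, all detected in each group, summed to 781.7 to 1074 CPM in the controls of experiment 1 and to 367.1 to 453.2 CPM at 30 mM, and 6 of the 9 tested fell. Acta2, the smooth muscle actin, fell by 1.60 on the log2 scale there. The others that fell were Tagln, Cnn1, Col1a1, Col1a2 and Dcn. Pdgfrb (log2 fold change -0.08), Rgs5 (0.15) and Lum (-0.13) did not pass at 30 mM. The oligodendrocyte markers summed to 7388 to 9088 CPM in these controls and 9513 to 16290 CPM at 30 mM, and the astrocyte markers to 3646 to 4586 and 5099 to 6472 CPM. In experiment 2 the mural and fibroblast sums overlapped, at 480.6 to 617.9 CPM in controls and 482.4 to 541.6 CPM at 10 mM. Dcn, 1 of the 8 tested, fell there (log2 fold change -0.39, edgeR adjusted p = 0.0184). All 8 had log2 fold changes below 0. Cnn1 (-0.76, edgeR adjusted p = 0.065) did not pass, although its groups did not overlap. The oligodendrocyte and astrocyte sums overlapped as well, but 3 of the 8 oligodendrocyte markers rose at 10 mM and none fell. They were Mag (log2 fold change 0.36, edgeR adjusted p = 8.45e-05), Mal (0.38, edgeR adjusted p = 0.000185) and Cnp (0.25, edgeR adjusted p = 0.0038), with no overlap for Mag and Mal. At 30 mM 7 of the 8 oligodendrocyte markers rose, as did 5 of the 7 astrocyte markers. Of all genes, 6.65% fell and 3.02% rose at 30 mM, and 0.266% fell and 0.391% rose at 10 mM. The part of these marker shifts in the fall of the NRF2 targets at either dose was not tested.

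The largest gap between the experiments was in the 7 microglial markers. They summed to 114.7 to 209.6 CPM in the samples of experiment 1 and to 1215 to 1787 CPM in those of experiment 2, and ethanol and control sums overlapped at both doses. The chemokine receptor gene Cx3cr1 rose at 30 mM (log2 fold change 1.07, edgeR adjusted p = 0.0124) and at 10 mM (0.29, edgeR adjusted p = 0.0357). In experiment 1 it had only 4 to 14 counts in controls and 7 to 21 at 30 mM, with overlapping samples. The other tested microglial markers, 3 at 30 mM and 5 at 10 mM, did not pass. Hmox1, which macrophages and microglia express strongly, was the gene whose level was higher in experiment 2, and the part of microglia in it was not tested. Oligodendrocyte precursor, endothelial and neuronal sums overlapped between ethanol and control samples in both experiments. Among the neuronal markers, Stmn2 fell at 30 mM (log2 fold change -0.71, edgeR adjusted p = 1.27e-05) and at 10 mM (-0.40, edgeR adjusted p = 0.0291), and Tubb3 rose at 10 mM (0.24, edgeR adjusted p = 0.026). Cldn5, the endothelial tight junction gene, had 0 counts in all groups except 10 mM, where its highest count was 1, under the floor.

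**Figure D4:**
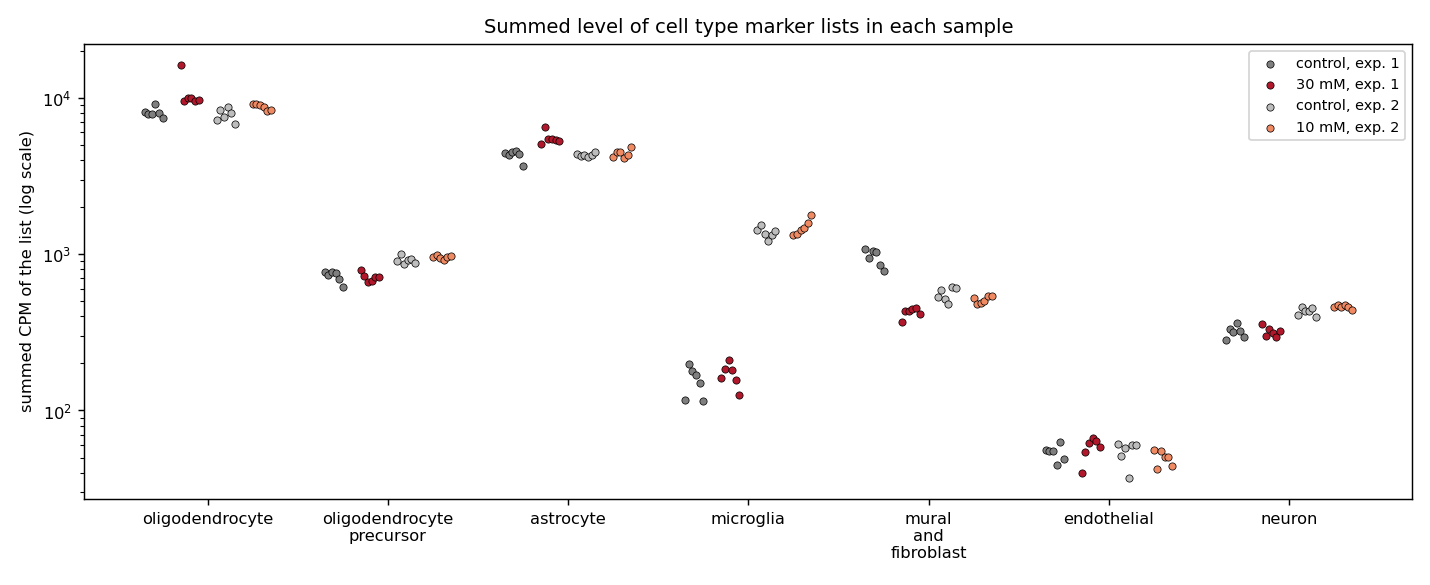
Summed CPM (log scale) of 7 lists of cell type markers in each of the 24 samples, by group. The mural and fibroblast sums of experiment 1 fall from at least 781.7 CPM in controls to at most 453.2 CPM at 30 mM, and the microglial sums of experiment 2 are at least 1215 CPM.

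Within groups, the 10 genes mostly varied together from sample to sample. After each group's mean was subtracted, 43 of the 45 pairs had a positive Pearson correlation of log2 CPM over the 24 samples, with a median of 0.36. Pairs share each sample's library and its scaling, so these values are descriptions. The highest were 0.61 for Gclc and Txn1, 0.59 for Hmox1 and Slc7a11 and 0.58 for Gclm and Srxn1, and the lowest was -0.28 for Nqo1 and Txn1. Replicate 1 at 30 mM stood above its group's mean by 0.30 on average over the 10 genes (log2 CPM), the largest deviation of any sample, and it also had the highest sum of oligodendrocyte markers. Without it, 9 genes still fell at 30 mM.

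**Figure D5:**
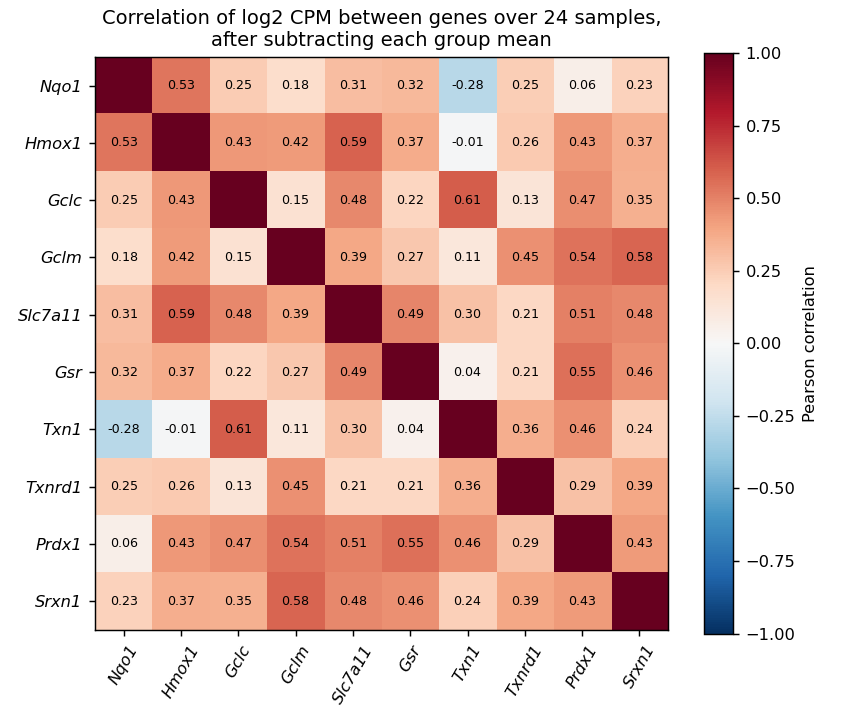
Pearson correlation of log2 CPM for each pair of the 10 genes over 24 samples after subtraction of the group means (colour and printed value). Values are above 0 except for Nqo1 with Txn1 (-0.28) and Hmox1 with Txn1 (-0.01).

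The genes closest to the average of the 10 by the same within-group correlation, among 13339 genes with a mean log2 CPM of at least 3, were Unc5b (0.78), Mrpl22 (0.75), Aes (0.74), Mapk6 (0.74) and Mdga2 (0.72). The median over those genes was 0.01. None of the 5 passed at either dose or in the interaction by edgeR's quasi-likelihood test, and their log2 fold changes ran from -0.22 to 0 at 30 mM.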

How the data were processed

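The submitters counted single-end 3′ TagSeq reads of 100 bases and deposited raw counts per gene for 24 samples in 4 groups of 6, per the labels. Tools named in the submitters' processing notes are cutadapt 1.18 and STAR, with the genome build GRCm39. The counter, annotation release, use of strand and handling of PCR copies are not given in the sources used here. Symbols matched 52083 of 55359 identifiers (94.1%). Each dose was fitted against the controls of its experiment in edgeR 4.0.16 (R 4.3.3), with TMM, filterByExpr at a minimum of 10 counts, the quasi-likelihood test and Benjamini-Hochberg adjustment over all genes tested. Genes with an adjusted p under 0.05 are called. The SE is the log2 fold change divided by the square root of F, and log2 CPM used a prior count of 2. The test was also run on counts simulated from the fitted spread, and the outcome is not given here. Those counts held no batch or incubator differences, so the run cannot speak to either. Of 60 pairs of samples within groups, none matched within sampling noise (largest chi-square p 3.4e-11). The 10 genes and the other lists were chosen with earlier results of these data known. Genes of the other lists are named as the up to 4 with the smallest p at 30 mM plus those passing at 10 mM or in the interaction. Others of the lists that passed at 30 mM were added after their values were seen, as were the cell type markers given with values. Alternatives covered scaling, filter, tool, threshold, joint fit, replicate block and leaving out each sample.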

Additional observations from a re-analysis of the deposited data

Results flagged for a closer look

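Of 40 sets of 6 samples (10 genes in 4 groups), 2 held a sample far from the others, and chance flags about 1 in 20, or 2 of 40. Gclm in replicate 1 at 30 mM had 174.9 CPM, where the other 5 samples had 116.5 to 135.1 CPM. Srxn1 in replicate 2 at 10 mM had 156.4 CPM, where the other samples had 136.2 to 142.7 CPM.

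The change differed between the doses for Hmox1 (difference of log2 fold changes -0.77), Txnrd1 (-0.54) and Srxn1 (-0.53) by the interaction in edgeR's quasi-likelihood test. Each was more negative at 30 mM. Experiment and dose cannot be told apart in this contrast.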

How the results depend on the processing

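Of the results above, 9 genes lower at 30 mM, 3 differing between the doses and 9 differing between the control groups kept counts within 1.5 times under the other scalings, filters, tools, thresholds and the joint fit, with 8 to 9, 3 and 9 genes. The 3 calls at 10 mM did not. There were 0 at an adjusted p under 0.01, 0 without a low-count filter, 0 with at least 1 CPM in 6 samples, 0 in the joint fit of 24 samples and 1 with DESeq2, which gave no adjusted p for Nqo1 and Gclc. Without each sample in turn the counts were 8 to 9 at 30 mM, 0 to 2 at 10 mM, 3 to 5 for the difference between the doses and 9 between the control groups. No called gene changed direction. Both other filters test more genes by construction; other causes were not tested.

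With the replicate number as a block the counts were 9, 3, 3 and 9, the same genes as without it. Samples of the same number did not deviate together: their correlation ran from -0.168 to 0.233, and 1 of 12 exceeded 0.1. Of the 12 ethanol samples, 1 correlated best with its own number.

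Over all genes, 1280 passed at 30 mM and 641 at an adjusted p under 0.01. At 10 mM 89 passed, with 150 at 0.1, 28 at 0.01, 21 in the joint fit, 59 with the CPM filter and 37 to 57 without replicate 2 or 4 at 10 mM or control replicate 4, 5 or 6. The interaction had 481, with 854 at 0.1, 173 at 0.01 and 759 or 723 without replicate 1 or 2 at 30 mM.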

Other observations

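The other antioxidant lists also started from different levels in the experiments. In control samples, 19 of 26 tested genes among the other NRF2 targets were higher in experiment 1 and none lower, by edgeR's quasi-likelihood test, with a median log2 difference of 0.40. In the glutathione system 12 of 18 were higher and 2 lower, in the thioredoxin and peroxiredoxin system 8 of 11 were higher, and of superoxide dismutases and catalase 4 of 5 were. Of all genes tested, 21.3% were higher and 22.3% lower. Gsta4 differed by 1.45 on the log2 scale, Maff by 1.58 and Gpx4 by 0.97. Nfe2l2 did not pass (0.16, edgeR adjusted p = 0.0697), and neither did Keap1 (-0.04, edgeR adjusted p = 0.756).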
